A study of Mus musculus with 18 samples.

Results

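The laminin chain genes described here are the 9 symbols Lama1, Lama2, Lama3, Lama4, Lama5, Lamb1, Lamb2, Lamb3 and Lamc1, each matched to 1 Ensembl identifier among the 47643 genes of the deposited count table. Their messenger RNA was followed through 18 libraries of MPC3, a cell line that the series title places in prostate cancer, and the labels name no treatment beyond the knockdown. The control group of 6 libraries carries the name plko in its titles, and 6 libraries each carry the short hairpin RNAs shRNF185.1 and shRNF185.3, which are directed at Rnf185, the gene of a ubiquitin ligase in the membrane of the endoplasmic reticulum. All 18 libraries come from this line, and batches 1, 2 and 3 each hold 2 libraries of every group. The labels do not say whether replicates are separate cultures, so the p-values measure the spread between these libraries, which may be technical. Of the 9 members, 8 had enough counts to be tested, and Lama1 did not. The gamma chain gene Lamc3 is not among the 9 and had 0 to 5 counts in any library, too few for a test.

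Laminins are the cross-shaped proteins that organise basement membranes, the thin matrix sheets under epithelia and around vessels, nerves and muscle fibres. Each laminin is a trimer of 1 alpha, 1 beta and 1 gamma chain that is assembled in the endoplasmic reticulum and secreted. The alpha chain carries the main binding sites for integrins and dystroglycan at the cell surface, while the short arms of the chains link laminins to each other and to nidogen. In the prostate the glands rest on such a membrane, and cells that leave a gland must cross it.

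Lama4, Lamb2 and Lamc1 rose with both hairpins, so that each of the 3 chain types had a member that was higher in the knockdown libraries. Lama4 averaged 3.43 times its control level with shRNF185.1 and 3.01 times with shRNF185.3, and Lamb2 and Lamc1 were 1.37 to 1.67 times as high. Lama5, the alpha chain with the highest level per length in control, passed the test with neither hairpin. Lama2 and Lamb1 rose with shRNF185.3, and Lama3 and Lamb3 passed the test against control with neither.

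The promoters of a beta chain that rose with both hairpins and of 2 abundant chains that were not called with both are shown for comparison, from RefSeq promoter windows on GRCm38.p6. The windows run from 250 bases before to 50 after the annotated start, and they were matched for 5 of the 9 members, Lama2, Lama5, Lamb1, Lamb2 and Lamb3. Each sequence below is the part of the window that lies upstream of any annotated exon, written 5′ to 3′ on the strand of the gene, and capitals mark a match to the CCAAT box (CCAAT) or the GC box (GGGCGG), read on both strands. The Lamb2 sequence is chr9:108479612-108479735 on the plus strand, that of Lamb1 is chr12:31265043-31265233 on the plus strand, and that of Lama5 is chr2:180225860-180226109 on the minus strand.
Lamb2: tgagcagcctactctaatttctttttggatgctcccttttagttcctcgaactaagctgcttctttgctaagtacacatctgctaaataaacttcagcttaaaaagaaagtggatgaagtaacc
Lamb1: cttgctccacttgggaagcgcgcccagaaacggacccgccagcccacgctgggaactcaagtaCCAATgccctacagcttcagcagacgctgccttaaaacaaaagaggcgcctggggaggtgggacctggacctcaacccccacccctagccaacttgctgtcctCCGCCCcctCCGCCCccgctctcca
Lama5: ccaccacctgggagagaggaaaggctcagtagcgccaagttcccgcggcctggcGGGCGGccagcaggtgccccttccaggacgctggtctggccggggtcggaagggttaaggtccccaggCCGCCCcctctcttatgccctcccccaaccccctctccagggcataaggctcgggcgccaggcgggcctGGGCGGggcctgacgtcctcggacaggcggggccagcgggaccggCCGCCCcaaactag
In the whole 300-base windows, the GC content was 44% for Lamb2, 63.7% for Lamb1 and 72.7% for Lama5, beside a median of 52.7% over 32851 windows. The CG dinucleotides numbered 4, 18 and 24, beside a median of 7. The Lamb2 window held no match to either motif, to a TATA box (TATAAA) or to an AP-1 site (TGANTCA), none of which overlaps another in these windows. The Lamb1 window held 1 CCAAT box and 2 GC boxes, and the Lama5 window held 4 GC boxes. Among all windows, 37.4% held a CCAAT box, 35.7% a GC box, 13.6% a TATA box and 7.81% an AP-1 site. The window of Lama2, which was not called with both hairpins, had 50.3% GC, 1 CG dinucleotide, 1 GC box and no match to the other motifs. Lamb3, called against control with neither hairpin, had 2 windows, each of 59.3% GC, with 2 and 5 CG dinucleotides. Like the Lamb2 window, they held no match to any of the 4 motifs. These matches describe letters only, and a link between them and the fold changes was not tested.

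The knockdown was present in every hairpin library. CPM below is the deposited library-scaled count, and a value with ± is a mean with its SD over the 6 libraries of a group (n = 6). Rnf185 stood at 35.9 ± 1.96 CPM in control, at 5.81 ± 0.582 CPM under shRNF185.1 and at 5.80 ± 0.546 CPM under shRNF185.3. Its log2 fold change was -2.63 with either hairpin, with a standard error of 0.07. Each library held between 22027395 and 43379662 counts, so that 3 counts, the limit that a count of 0 allows, corresponded to 0.0692 to 0.136 CPM. This limit covers counting error only. Of the prostate lineage markers, Pbsn had at most 3 counts in every library, while the luminal keratin gene Krt8 averaged 1197 ± 98.2 CPM in control.

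Among the tested alpha chains, Lama4 had the largest fold change with each hairpin. Lama4 encodes an alpha chain without a short arm that is common in vessel walls, muscle and fat, and it lies at chr10:38965515-39110188 on the plus strand of GRCm38. Control libraries 1 to 6 had 13.4, 16.0, 17.4, 19.9, 13.1 and 16.2 CPM of Lama4. With shRNF185.1 the values were 59.5, 65.2, 44.8, 38.5, 54.6 and 67.4 CPM. With shRNF185.3 they were 42.8, 46.0, 46.1, 62.0, 41.8 and 50.3 CPM. Every hairpin library was above every control library, and libraries 3 and 4, those of batch 2, were the lowest of the shRNF185.1 group. The group means were 16.0 ± 2.53, 55.0 ± 11.4 and 48.2 ± 7.42 CPM. The log2 fold change against control was 1.78 with shRNF185.1 (standard error 0.14, adjusted p = 2.97e-08) and 1.59 with shRNF185.3 (standard error 0.14, adjusted p = 1.26e-07), by edgeR's quasi-likelihood F test with Benjamini-Hochberg adjustment over 14309 genes. Both comparisons use the same 6 control libraries. Within batches 1, 2 and 3 the log2 ratio of mean CPM to control was 2.08, 1.16 and 2.05 for shRNF185.1, and for shRNF185.3 it was 1.59, 1.54 and 1.65.

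**Figure D1:**
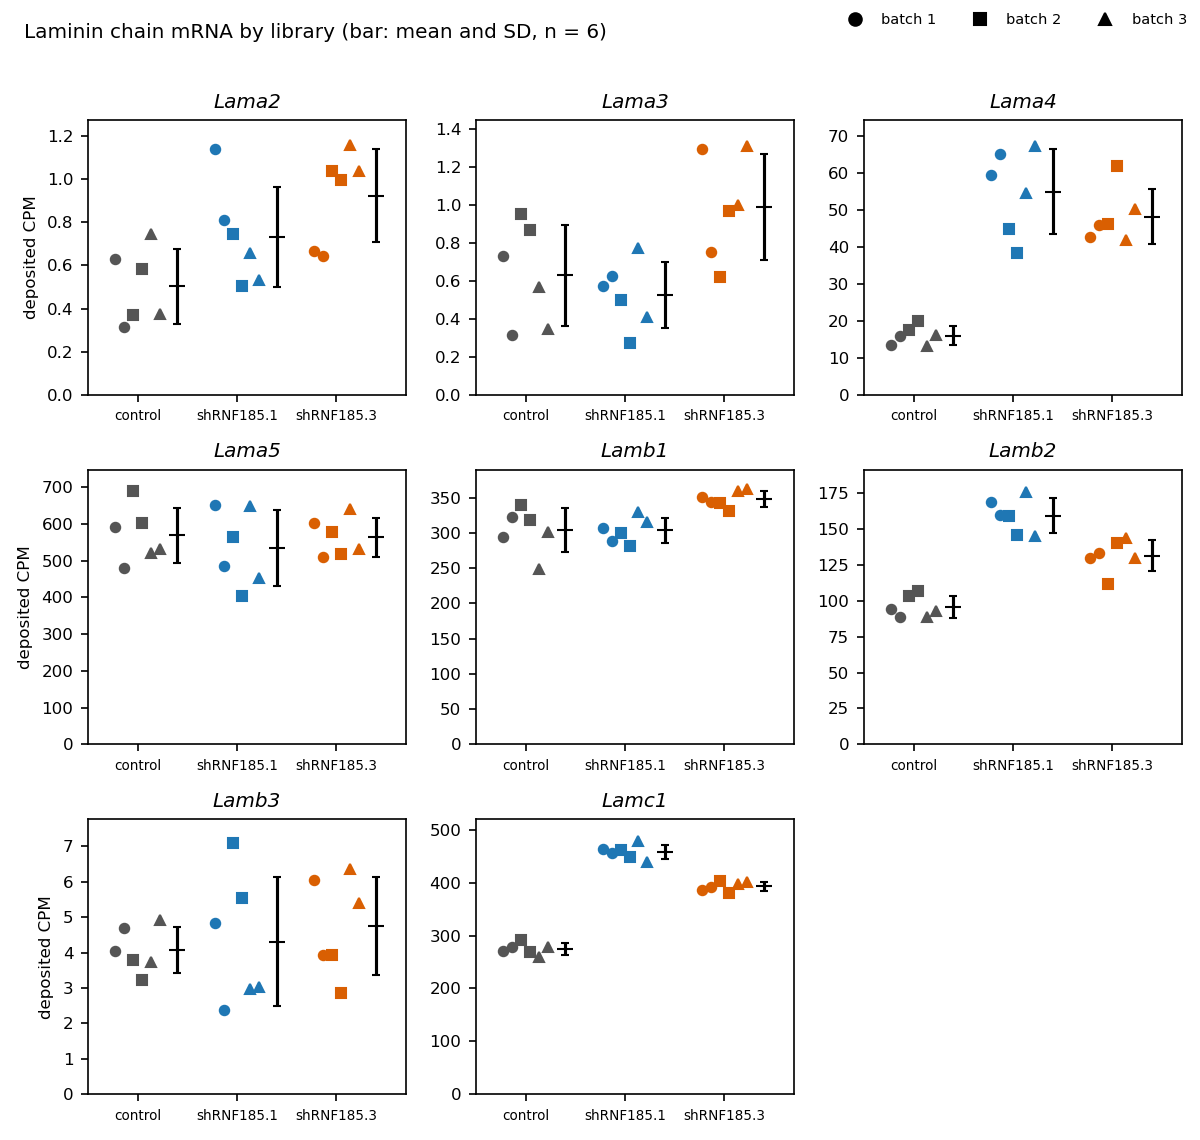
Deposited CPM of the 8 tested laminin members in each library; the vertical axes are linear and start at 0, marker shape gives the batch, and the bar beside each group is the mean with its SD over 6 libraries. Lama4, Lamb2 and Lamc1 are separate from control with both hairpins, while Lama5 and Lamb3 overlap throughout.

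Lama5, whose product is the most widespread alpha chain of adult epithelial and vascular basement membranes, lies at chr2:180176373-180225859 on the minus strand. Its CPM in control libraries 1 to 6 was 591, 481, 691, 604, 522 and 531. The shRNF185.1 libraries had 652, 486, 564, 403, 649 and 452 CPM, and the shRNF185.3 libraries 602, 511, 579, 518, 641 and 531 CPM. The 3 groups overlapped, and within each hairpin group the odd-numbered libraries were all higher than the even-numbered ones, 564 to 652 against 403 to 486 CPM with shRNF185.1 and 579 to 641 against 511 to 531 CPM with shRNF185.3, a split that was seen in the values and not sought beforehand. In control the odd-numbered libraries, at 522 to 691 CPM, overlapped the even-numbered ones, at 481 to 604 CPM. The log2 fold change was -0.09 with shRNF185.1 (95% interval -0.34 to 0.15, adjusted p = 0.574) and -0.01 with shRNF185.3 (95% interval -0.26 to 0.23, adjusted p = 0.946). These intervals leave out a change of the size seen for Lama4.

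The other alpha chain genes were scarce. Lama2, which encodes the alpha chain of muscle and peripheral nerve, had 9 to 32 counts per library and Lama3, the alpha chain of epithelial anchoring laminin, 7 to 37. Lama2 ranged from 0.313 to 0.746 CPM in control with a median of 0.480, from 0.504 to 1.14 CPM with a median of 0.701 with shRNF185.1, and from 0.644 to 1.16 CPM with a median of 1.02 with shRNF185.3. The groups overlapped in part, and the fold change passed the test with shRNF185.3 (log2 0.87, standard error 0.24, adjusted p = 0.0119) but not with shRNF185.1 (log2 0.53, standard error 0.25, adjusted p = 0.119). The difference between the hairpins did not pass either (log2 0.34, 95% interval -0.17 to 0.84, adjusted p = 0.43). Lama2 no longer passed with shRNF185.3 without batch 2 (adjusted p = 0.105) or without batch 3 (adjusted p = 0.0948). Lama3 averaged 0.629 ± 0.266, 0.524 ± 0.174 and 0.988 ± 0.279 CPM in control, shRNF185.1 and shRNF185.3, and its log2 fold changes against control were -0.26 (adjusted p = 0.552) and 0.64 (adjusted p = 0.0939). Antisense genes cover 3.86% of the exonic bases of Lama2 and 1.83% of those of Lama3, and the strand setting of the counting is not given in the sources used here. Lama1, the alpha chain of the early embryo, had 0 or 1 count in each library, with 2 counts in all in control, 1 with shRNF185.1 and 3 with shRNF185.3.

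Among the beta chains, Lamb2 rose with both hairpins and Lamb1 with shRNF185.3. Lamb2 encodes the beta chain of the neuromuscular junction and the kidney filter, and lies at chr9:108479736-108490530 on the plus strand. Control libraries 1 to 6 had 94.4, 88.7, 103, 107, 88.4 and 93.2 CPM of Lamb2. The shRNF185.1 libraries had 169, 160, 159, 146, 176 and 145 CPM, and the shRNF185.3 libraries 130, 133, 112, 140, 144 and 130 CPM. The 3 groups did not overlap, with control lowest, shRNF185.3 between and shRNF185.1 highest. The log2 fold change was 0.73 with shRNF185.1 (standard error 0.07, adjusted p = 1.73e-07) and 0.46 with shRNF185.3 (standard error 0.07, adjusted p = 4.2e-05). Within batches 1, 2 and 3 it was 0.85, 0.53 and 0.82, and 0.52, 0.26 and 0.59, so that batch 2 had the smallest difference with each hairpin.

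Lamb1, the beta chain of most laminins in development and in adult epithelia, lies at chr12:31265234-31329644 on the plus strand. Control libraries 1 to 6 had 295, 323, 340, 318, 249 and 302 CPM of Lamb1. The shRNF185.1 libraries had 307, 289, 300, 282, 330 and 315 CPM and lay within the control range. The shRNF185.3 libraries had 351, 344, 343, 331, 360 and 362 CPM, and 5 of these 6 were above the highest control library. With shRNF185.1 the 95% interval of the log2 difference was -0.13 to 0.13 (adjusted p = 0.972). With shRNF185.3 the log2 fold change was 0.20 (standard error 0.06, adjusted p = 0.022), and this call was lost without batch 1 (0.21, adjusted p = 0.139), without batch 3 (0.10, adjusted p = 0.214), without the filter on low counts (adjusted p = 0.0633) and with the libraries of a group and batch summed (adjusted p = 0.058). Lamb3, the beta chain that pairs with Lama3 in anchoring laminin, ranged from 2.37 to 7.09 CPM over the 18 libraries, and its groups overlapped. Its log2 fold changes were 0.08 (95% interval -0.43 to 0.60) and 0.22 (95% interval -0.29 to 0.74), intervals that do not leave out a change of the size seen for Lamb2 with shRNF185.3.

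Lamc1 had the smallest spread within groups of the tested members. It encodes the gamma chain shared by most laminins, and lies at chr1:153218922-153332786 on the minus strand. Control libraries 1 to 6 had 271, 279, 292, 269, 260 and 278 CPM of Lamc1. With shRNF185.1 the values were 464, 456, 462, 450, 480 and 439 CPM, and with shRNF185.3 they were 386, 392, 403, 380, 398 and 401 CPM. No 2 groups overlapped, and the order was the same as for Lamb2. As for Lama5, the odd-numbered shRNF185.1 libraries, at 462 to 480 CPM, were all above the even-numbered ones, at 439 to 456 CPM. In control and with shRNF185.3 the odd-numbered and even-numbered libraries overlapped. The standard deviation was 4.02%, 3.03% and 2.25% of the mean in control, shRNF185.1 and shRNF185.3. The log2 fold change was 0.74 with shRNF185.1 (standard error 0.04, adjusted p = 1.18e-10) and 0.52 with shRNF185.3 (standard error 0.04, adjusted p = 1.15e-08). Within batches 1, 2 and 3 it was 0.74, 0.70 and 0.78, and 0.50, 0.48 and 0.57.

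Counted over the members, 3 of the 8 tested were called with shRNF185.1 and 5 with shRNF185.3, each of them higher. Over all 14309 genes tested, 28.9% were called with shRNF185.1 and 14.6% were called higher, and the shares with shRNF185.3 were 27.3% and 14.2%. The 3 members called higher with both hairpins stand beside 8.99% of all tested genes. The median log2 fold change of the tested members was 0.31 and 0.49 with the 2 hairpins, beside -0.02 over all tested genes with each. In each comparison against control, 3 of the 8 had groups of CPM values that did not overlap, against 12.8% and 13.3% of all tested genes.

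**Figure D2:**
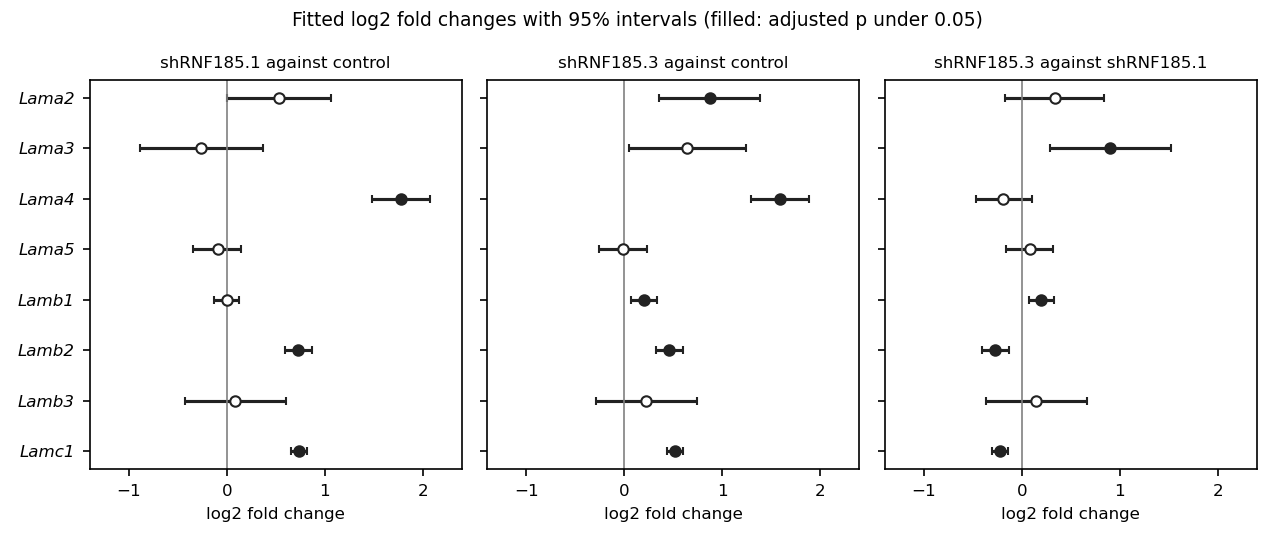
Fitted log2 fold changes of the laminin genes (horizontal axis) in the 3 comparisons, with 95% intervals; filled points have an adjusted p under 0.05. Lama4, Lamb2 and Lamc1 lie right of 0 in both comparisons with control, and the intervals of Lama5 include 0 in all 3.

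The hairpins, which lowered Rnf185 to the same level, differed in 4 of the 8 tested members, 2 higher and 2 lower with shRNF185.3 than with shRNF185.1. Over all tested genes 14.7% differed, 7.72% higher and 6.94% lower. Lamc1 was lower with shRNF185.3 by a log2 difference of -0.22 (standard error 0.04, adjusted p = 0.000425) and Lamb2 by -0.27 (standard error 0.07, adjusted p = 0.00813). Lamb1 was higher with shRNF185.3 by 0.20 (standard error 0.06, adjusted p = 0.0323) and Lama3 by 0.90 (standard error 0.29, adjusted p = 0.0409). The hairpin groups did not overlap for Lamb1, Lamb2 and Lamc1, beside 8.25% of all tested genes, and overlapped for Lama3. For Lama4 the difference was -0.19 (95% interval -0.47 to 0.10, adjusted p = 0.437). The Lama3 call was lost in 8 of 14 alternative analyses and when shRNF185.1 library 1, 2, 3, 4 or 6 or shRNF185.3 library 1, 4, 5 or 6 was left out (adjusted p = 0.0539 to 0.0968). The Lamb1 call was lost in 7 of 14 and when shRNF185.1 library 1, 2, 3 or 4 or shRNF185.3 library 1, 2, 5 or 6 was left out (adjusted p = 0.0501 to 0.0903). The calls of Lamb2 (adjusted p = 0.172) and Lamc1 (adjusted p = 0.0564) were lost without batch 1.

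**Figure D3:**
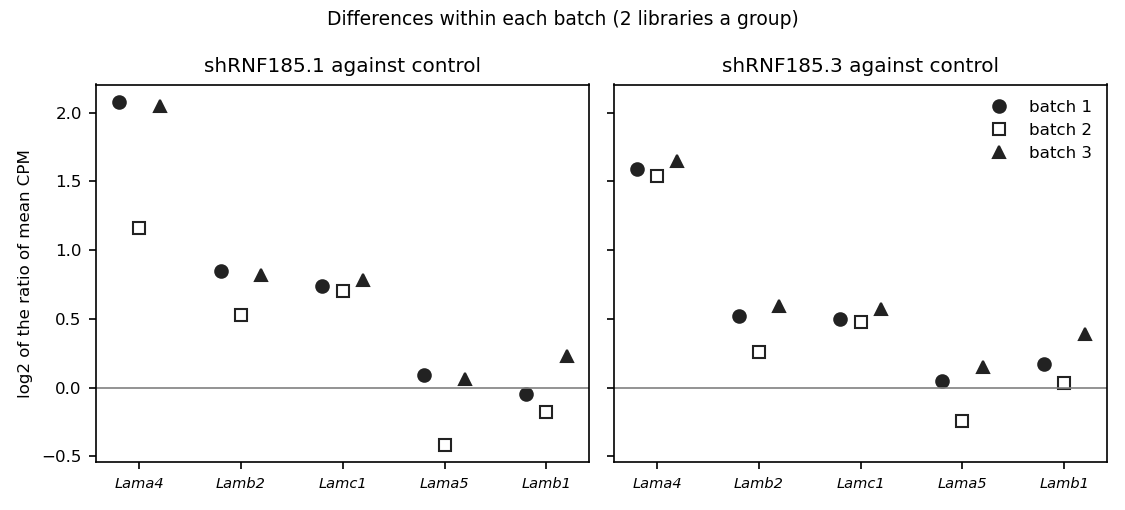
Log2 ratio of mean CPM, hairpin over control, within each batch of 2 libraries a group, for 5 members; marker shape gives the batch and the grey line marks 0. Lama4, Lamb2 and Lamc1 are above 0 in all 3 batches with both hairpins, and Lama5 is below 0 in batch 2 alone.

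Levels of different genes were compared as CPM per kilobase of exon, the union of annotated exons. In control the order was Lama5 (42.2 to 60.6), then Lamc1 (33.2 ± 1.33), Lamb1 (30.7 ± 3.19), Lamb2 (15.8 ± 1.27), Lama4 (1.33 ± 0.210), Lamb3 (0.616 ± 0.0964), Lama3 (0.0585 ± 0.0247) and Lama2 (0.0308 ± 0.0106), all in CPM per kilobase. The ranges of Lamc1 and Lamb1 overlapped, as did those of Lama3 and Lama2, while every other neighbouring pair in this order was separate. The order depends on the length used. With the longest annotated transcript in place of the union of exons, the ratio of Lamc1 to Lamb1 was 0.641 to 0.793 in control. By that length Lamb1 was above Lamc1 in every control library. With shRNF185.1 Lamc1 reached 55.4 ± 1.68 CPM per kilobase beside 46.9 ± 9.15 for Lama5, and their ranges overlapped. Lama4 reached 4.56 ± 0.948 CPM per kilobase with shRNF185.1, and with shRNF185.3 it stood at 3.99 ± 0.615. Lama4 was below Lama5 in every library, and the ratio of Lama5 to Lama4 per length went from 38.3 ± 6.22 in control to 10.6 ± 2.54 and 12.7 ± 2.68. With the longest transcript this ratio was 19.2 ± 3.12, 5.31 ± 1.27 and 6.37 ± 1.34.

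**Figure D4:**
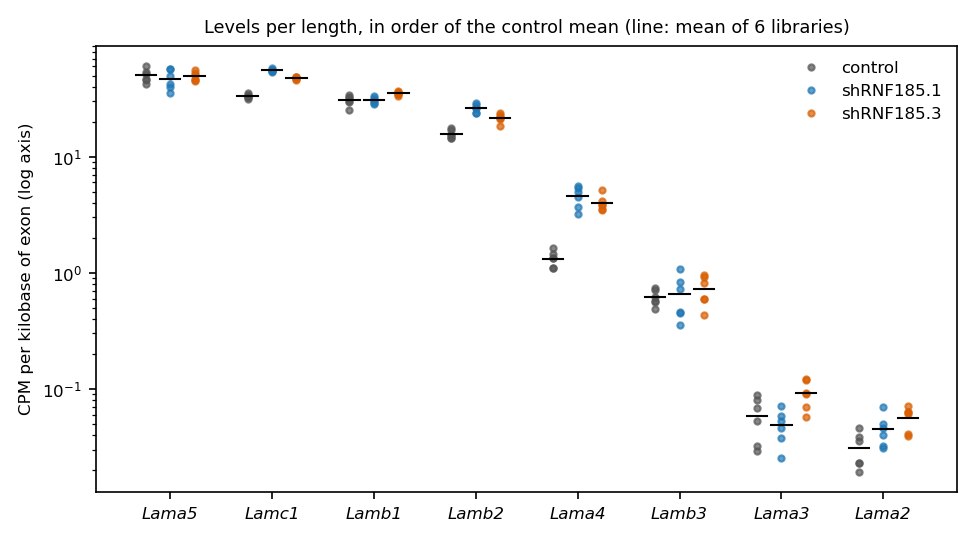
CPM per kilobase of exon (log axis) of each laminin gene by library, ordered by the control mean, with a line at each group's mean of 6 libraries. Lama5, Lamc1 and Lamb1 lead in control, and Lama4 is higher in both hairpin groups.

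Expressed as shares of the summed level per length within a chain type, the makeup of the laminin messages differed between the groups. In control, shRNF185.1 and shRNF185.3, Lama4 made up 2.60 ± 0.407%, 9.01 ± 2.22% and 7.52 ± 1.56% of the alpha chains, and Lama5 made up 97.2%, 90.8% and 92.2%. The Lamb2 share of the beta chains was 33.5 ± 1.99%, 45.5 ± 1.67% and 37.6 ± 2.11%, and the last of these overlapped control. These shares depend on the length used: with the longest annotated transcript in place of the union of exons, the Lama4 share was 5.05%, 16.4% and 13.9%, and the order of the groups was the same. The summed alpha chains stood at 51.5 ± 6.67, 51.6 ± 9.35 and 53.6 ± 4.20 CPM per kilobase, while the summed beta chains came to 47.1 ± 4.06, 57.5 ± 3.27 and 57.5 ± 2.39. With the longest transcript the alpha sums were 52.8, 56.1 and 57.7, and the beta sums 70.5, 81.7 and 84.6. No test was run on these shares and sums, which are made from the values tested above.

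**Figure D5:**
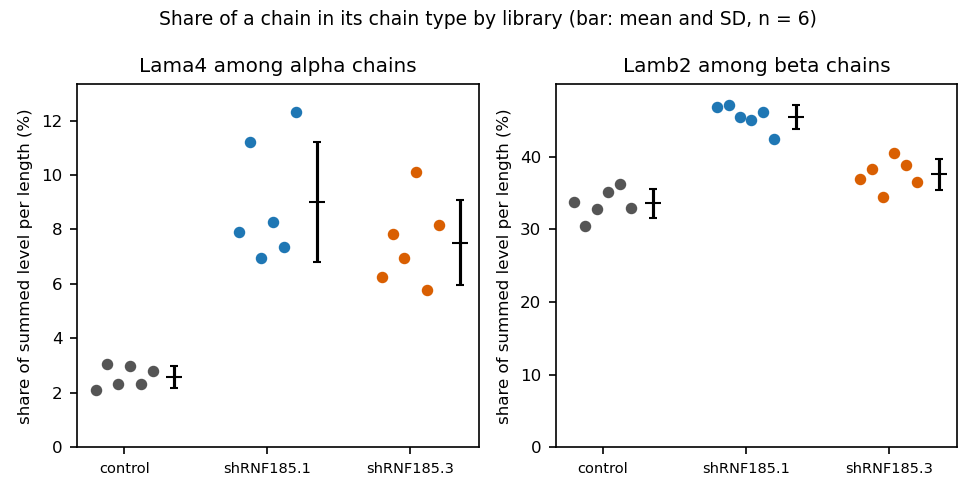
Share in percent of Lama4 and Lamb2 in the summed level per length of the alpha and beta chains, by library, with the mean and SD of each group of 6. The Lama4 share is higher in every hairpin library than in every control library, and the Lamb2 share of shRNF185.3 overlaps control.

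Genes with the pattern closest to each of the 3 chains that rose with both hairpins were found by the root mean square difference in log2 CPM from the control mean over the 18 libraries. They were picked for this closeness in these same libraries. Their small differences and like fold changes therefore follow from the choice, and a shared regulation was not tested. Closest to Lama4 were Ptgfr, a prostaglandin receptor gene, at 0.202 and Ssc5d at 0.279, beside a median of 1.39 over all genes. Ptgfr had log2 fold changes of 2.08 and 1.95, and Ssc5d of 1.48 and 1.56. Closest to Lamb2 were Galnt18, at 0.102, and Hspg2, at 0.108, beside a median of 0.55, and closest to Lamc1 were Ube3b, at 0.090, and Man2a1, at 0.091, beside a median of 0.57. Galnt18 and Man2a1 encode enzymes that act on the sugar chains of secreted proteins, and Ube3b encodes a ubiquitin ligase.

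Among 20 genes of basement membrane partners of laminin, 15 were tested. Under shRNF185.1, 6 of these were higher and 2 lower by the test, and under shRNF185.3 the counts were 8 and 1, beside 14.6% and 14.2% of all tested genes called higher and 28.9% and 27.3% called in either direction. The list's median log2 fold change was 0.23 and 0.31, beside -0.02 over all tested genes. Hspg2, which encodes perlecan, a heparan sulfate proteoglycan that binds laminin, rose from 417 ± 43.6 CPM to 666 ± 74.2 and 587 ± 54.0 (log2 0.67 and 0.50, adjusted p = 5.45e-06 and 0.000157). Col4a1, Col4a2, Sparc and Pxdn were also called higher with both hairpins, by log2 0.19 to 0.69, and Col4a1 and Col4a2 encode the collagen IV chains of the same membrane. Npnt, which encodes the integrin ligand nephronectin, fell from 40.5 ± 10.5 CPM to 6.92 ± 1.47 and 10.3 ± 1.87.

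The receptors for laminin held calls in both directions, as did all tested genes, of which 28.9% were called with shRNF185.1 and 27.3% with shRNF185.3. Of 15 genes of laminin receptors and their partners, 13 were tested. Under shRNF185.1 the test called 2 higher and 3 lower, and under shRNF185.3 it called 2 in each direction, with medians of -0.04 and -0.03. Sdc1, the gene of the cell surface proteoglycan syndecan 1, rose from 300 ± 25.4 CPM to 405 ± 22.4 and 395 ± 42.8 (log2 0.43 and 0.40, adjusted p = 0.000128 and 0.000289). Itga6, an integrin alpha chain gene whose product binds laminin, fell from 153 ± 26.2 CPM to 105 ± 19.1 and 110 ± 12.8 (log2 -0.54 and -0.48, adjusted p = 0.00237 and 0.00611), and the call with shRNF185.3 was lost without batch 3 (-0.36, adjusted p = 0.114). Itgb4, the partner of Itga6 in hemidesmosomes, fell by 1.44 and 1.45 on the log2 scale at a mean of 20 counts, and Itga1, a collagen and laminin binding integrin chain, rose by 0.87 and 0.60 at a mean of 37 counts. The Itgb4 call with shRNF185.1 was lost without batch 2 (adjusted p = 0.062), and the Itga1 call with shRNF185.3 without batch 1 or 3 (adjusted p = 0.0782 and 0.0601). These 2 low-count genes were chosen after their values were seen.

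The remaining laminin-related lists are given by their counts, beside the 28.9% and 27.3% of all tested genes called with shRNF185.1 and shRNF185.3. Of 13 genes that build the laminin-binding sugar of dystroglycan, 12 were tested. The test called 3 higher and 1 lower under shRNF185.1, and 1 higher and 3 lower under shRNF185.3, 4 of 12 each time. Pomgnt1, a glycosyltransferase gene of this pathway, rose by log2 0.18 and 0.19. The Pomgnt1 calls were lost without batch 3 (adjusted p = 0.095 and 0.0737). Of 8 genes of proteases that can cut laminins, 5 were tested, with 3 higher with shRNF185.1, 1 higher with shRNF185.3 and none lower, and Mmp14, a membrane-bound matrix metalloproteinase gene, rose by log2 0.16 and 0.30, the first of which was lost without batch 1 (adjusted p = 0.269) and without batch 3 (adjusted p = 0.198). All 13 genes of hemidesmosomes and of the adhesion complex inside the cell were tested, and 5 were higher under each hairpin, beside 1 and 2 lower. Kank2, an adaptor gene of focal adhesions, rose by log2 0.24 and 0.27, and both calls were lost without batch 3 (adjusted p = 0.0671 and 0.0517). Of the 6 netrin genes, which share a domain with laminins, 3 were tested and none was called with both hairpins.

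Markers of other cell types moved with the laminin changes in part, and their part in the result was not tested. In these bulk libraries fewer cells of a type and less RNA per cell cannot be told apart. The counts of called markers stand beside 28.9% and 27.3% of all tested genes called with shRNF185.1 and shRNF185.3. The shares called higher were 14.6% and 14.2%. The summed CPM of 8 luminal epithelial markers ranged from 1692 to 2534 in control, from 1000 to 1751 with shRNF185.1 and from 1161 to 1367 with shRNF185.3, with 6 tested and 3 and 5 of them lower. Cdh1, the gene of the epithelial adhesion protein E-cadherin, fell by 1.91 and 2.13 on the log2 scale. The 10 mesenchymal markers summed to 4970 to 6841 CPM in control, 5811 to 6795 with shRNF185.1 and 6539 to 8085 with shRNF185.3. Of the 8 tested, 2 were higher and 1 lower with shRNF185.1, and 5 were higher with shRNF185.3. Their median log2 fold change was -0.01 and 0.33, beside -0.02 over all tested genes. The gene called lower was Dcn, by log2 -2.11. Pdgfrb, a growth factor receptor gene of fibroblasts and pericytes, rose by log2 0.36 and 0.58. The 5 smooth muscle markers summed to 7.15 to 48.1 CPM in control, 21.5 to 49.4 with shRNF185.1 and 28.8 to 120 with shRNF185.3. With shRNF185.1, 1 of the 3 tested was called higher, and with shRNF185.3 all 3 were. Cnn1, a contractile gene among them at 0.941 ± 0.553 CPM in control, rose by log2 2.01 and 2.83. Acta2, at 17.1 ± 14.9 CPM in control, and Tagln were not called with shRNF185.1 (adjusted p = 0.164 and 0.335). The 5 basal markers summed to 25.0 to 39.7, 19.3 to 29.8 and 21.6 to 28.6 CPM, with Krt5 at no more than 3 counts in any library. Of the 3 tested, 1 was higher and 1 lower with shRNF185.1, and 1 was higher with shRNF185.3. Trp63 rose by log2 0.64 and 0.76. This call was lost with shRNF185.1 without its library 1 (adjusted p = 0.0581) or batch 1 (adjusted p = 0.152), and with shRNF185.3 without batch 2 (adjusted p = 0.14). Krt14, at 26.5 ± 6.41 CPM in control beside 2.78 ± 0.696 for Trp63, went the other way. Its log2 fold changes were -0.49 (adjusted p = 0.0283) and -0.42 (adjusted p = 0.0582). The 5 prostate lineage markers summed to 84.7 to 119, 105 to 143 and 100 to 118 CPM. The 5 endothelial markers summed to at most 0.744 CPM in any library, and Cdh5, Tek and Emcn had no more than 3 counts. The 5 immune markers summed to at most 5.08 CPM, with Ptprc, Adgre1 and Cd3e at no more than 3 counts.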

How the data were processed

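Polyadenylated RNA was sequenced with a directional kit as single 75-base reads, per the labels' protocols. The submitters' processing notes name cutadapt 2.3, STAR 2.7.0d, RSEM 1.3.1 and the build mm10, with no role or order. The deposited table holds expected counts that the authors named for ComBat-Seq, a batch adjustment; whether it was told the groups is not given in the sources used here, and 0.466% of the values are not whole. The deposited CPM are a signal scaled by effective library size, per the values themselves, and list 15386 genes. Counts, which the design had taken to be whole, were rounded and tested in R 4.3.3 with edgeR 4.0.16: filterByExpr with a minimum count of 10 (14309 genes), TMM scaling, 1 model of 3 groups without covariates, quasi-likelihood F test, Benjamini-Hochberg adjustment over all tested genes, and a call threshold of 0.05. Standard errors were derived from the fold change and F, and 95% intervals from the t distribution with the 15 residual degrees of freedom of the design.

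Symbols matched 99.1% of identifiers, and positions and exon lengths are from GENCODE M21 on GRCm38, and no 75-base stretch of a laminin transcript occurred in another gene. Libraries of a group differed by a chi-square of 7.64 to 84.4 per gene in 45 pairs, so none was a duplicate. The fit was also checked on simulated data. Named genes are the 9 members, Lamc3 and Rnf185, the gene of each list that rose most and fell most with both hairpins with 50 or more counts on average, and the 2 genes closest in pattern to each member called with both (log2 of CPM + 0.5); some of these are not reported here. The members and lists were chosen with earlier results of these data known. Alternatives were other scalings and filters, DESeq2 1.42.0, limma 3.58.1 (voom, and log2 CPM with a pseudocount of 1), batch or replicate as a term, a GC and length offset, each batch left out and libraries summed; leaving out each of the 18 libraries was chosen after seeing the data.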

Additional observations from a re-analysis of the deposited data

Results flagged for a closer look

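The hairpins differed from each other in 4 of the 8 tested laminin chains by a test of the difference itself, beside 14.7% of all tested genes. The log2 difference, shRNF185.3 minus shRNF185.1, was 0.90 for Lama3 (adjusted p = 0.0409), 0.20 for Lamb1 (adjusted p = 0.0323), -0.27 for Lamb2 (adjusted p = 0.00813) and -0.22 for Lamc1 (adjusted p = 0.000425). All 6 shRNF185.3 libraries were above all 6 shRNF185.1 libraries for Lamb1 and below them for Lamb2 and Lamc1, while the groups overlapped for Lama3. Among all tested genes, 8.25% had hairpin groups that did not overlap. The Lama3 call held in 6 and the Lamb1 call in 7 of the 14 alternatives set out at the start, and none of the 4 calls held without batch 1. No library stood apart from the other 5 of its group in the CPM of Rnf185 or of a tested laminin gene, in the shares of Lama4 and Lamb2 or in the total count, by Dixon's test at the 95% level, where chance alone would mark about 1.8 of the 36 groups examined.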

How the results depend on the processing

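Lama4, Lamb2 and Lamc1 stayed higher than control and past the threshold with both hairpins in all 14 alternatives set out at the start and with each of the 18 libraries left out. Over these 14 their log2 fold changes were 1.62 to 2.07 and 1.53 to 1.62 for Lama4, 0.67 to 0.84 and 0.39 to 0.56 for Lamb2, and 0.68 to 0.76 and 0.47 to 0.54 for Lamc1, with adjusted p of at most 0.00951. The number of laminin genes called with shRNF185.3 went from 5 to 3 without batch 3. The number differing between the hairpins went from 4 to 2 without the low-count filter, with a batch covariate, with the replicate block and with the libraries of a group and batch summed, to 0 without batch 1, and ranged from 2 to 4 with single libraries left out. Over all genes, 4141 calls with shRNF185.1 became 2207 without batch 1, 3906 with shRNF185.3 became 2120 without batch 1 and 2501 without batch 3, and 2098 between the hairpins became 753 without batch 1 and 1208 without batch 2. With as many libraries a group, leaving out batch 2 gave 5119 calls with shRNF185.1 and 3849 with shRNF185.3.

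With shRNF185.1, Lama5 passed the threshold with a block for replicate number plus an offset for GC and length (-0.19, adjusted p = 0.0371). With shRNF185.3, Lama3 passed without batch 2 (1.14, adjusted p = 0.0141). Between the hairpins, Lama4 passed without batch 2 (-0.45, adjusted p = 0.0095). The causes were not tested.

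Same-numbered libraries share a batch by the labels. Their deviations from the group means correlated by -0.628 to 0.705 in 18 pairs, 4 of them over 0.1, so the numbers were not taken to pair single libraries within a batch. With the replicate block 3811, 3578 and 1976 genes were called with shRNF185.1, with shRNF185.3 and between the hairpins, and 3, 5 and 2 laminin genes. Depth limits Lama1, Lama2, Lama3 and Lamc3, which have few counts.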
